A study of Mus musculus with 10 samples.

Results

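Colonic epithelium of the mouse absorbs sodium and secretes potassium under the control of aldosterone, and the transcripts of 10 genes of that system were followed here. They were found in a deposited table of FPKM values (sequenced fragments per unit of transcript length, corrected for library size) per RefSeq transcript by the gene to which each transcript belongs, and the FPKM of a gene's transcripts were added up. The 10 genes are Nr3c2, Hsd11b2, Sgk1, Nedd4l, Scnn1a, Scnn1b, Scnn1g, Atp1b1, Fxyd4 and Atp12a, out of 23488 gene rows. All 10 were found, in 17 transcripts, and all 10 passed the filter on low values (at least 1 FPKM in at least 2 libraries), as did 14061 genes in all. The genes were chosen by pathway with their FPKM in these libraries already known. Their levels and differences are therefore given as a description, with no p-value printed for any of them. Which of them passed a test threshold is stated below, also as a description only.

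The study profiled colon of C57BL/6 mice by RNA-seq in 5 groups of 2 libraries, and its subject, by its title, is colon cancer speeded by colitis and what aspirin (ASA) and curcumin (CUR) given together do against it. Model mice received azoxymethane (AOM, a colon carcinogen) at 10 mg/kg under the skin at 6 weeks of age, then dextran sulfate sodium (DSS, which injures the colon lining) as 1.2% of their water over 7 days, and ate the AIN-93M diet. ASA, CUR and ASA+CUR mice had the same AOM and DSS and ate AIN-93M with 0.02% ASA, with 2% CUR, or with 0.01% ASA and 1% CUR. Control mice received saline in place of AOM, plain water and AIN-93M. The labels call the Control material colonic tissue and that of the 4 AOM/DSS groups tumor samples, whereas the extraction protocol speaks of a frozen piece of colon left after the proximal end and palpable tumors had been taken away. Nothing in the labels ties each library to a mouse of its own, so p-values reflect variation among these libraries alone, and part of it may be technical.

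Aldosterone binds the mineralocorticoid receptor, which is shielded from glucocorticoids by an enzyme that inactivates them. The receptor raises transcription of a kinase that restrains a ubiquitin ligase, and this leaves more epithelial sodium channel (ENaC) in the apical membrane. Sodium that enters through the channel leaves the cell through the basolateral sodium pump, and in the distal colon an apical H,K-ATPase recovers potassium; in the rodent colon the channel is known mainly from the distal part.

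All 10 libraries held gut epithelium, with the summed FPKM of 10 epithelial markers between 6597 and 14943 in the AOM/DSS libraries, against 10337 and 11965 in the Control libraries, and no marker of the list at 0. Single markers differed, with Cdx1 and Lgals4 lower, and Krt18 higher, in all 8 AOM/DSS libraries than in either Control library. Cdx2 was between 5.22 and 126 FPKM in AOM/DSS libraries, against 139 and 124 in Control libraries. The other tissue in the pieces differed. The 6 smooth muscle markers summed to 268 to 838 FPKM in AOM/DSS libraries, against 5285 and 8702 in Control libraries, and the 4 enteric neuron markers to 2.26 to 6.17 FPKM, against 75.5 and 75.7 in Control libraries. Of the 6 absorptive colonocyte markers, 4 fell in Model against Control. That list summed to 606 and 1114 FPKM in Model libraries and to 499 to 3771 in the 8 AOM/DSS libraries, with CUR replicate 0 highest, against 2477 and 2481 in Control libraries. The 5 leukocyte markers summed to between 45.0 and 266 FPKM in AOM/DSS libraries, against 11.9 and 14.1 in Control libraries, and the 2 Paneth cell markers to between 1117 and 3163 FPKM, against 7.92 and 8.05 in Control libraries. The part of these tissue differences in the values below was not tested. In pieces of tissue, fewer cells of a type and less RNA per cell cannot be told apart.

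Of the 10 genes, 6 were lower in all 8 AOM/DSS libraries than in either Control library: the receptor gene Nr3c2, Hsd11b2, Sgk1, Nedd4l, Scnn1a and Atp1b1. The 2 other channel subunit genes, Scnn1b and Scnn1g, were not lower, and Atp12a and Fxyd4 ranged from near 0 to Control level among libraries of one group. Among all genes tested, 20.3% were lower in all 8 AOM/DSS libraries than in either Control library and 20.1% were higher.

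**Figure D1:**
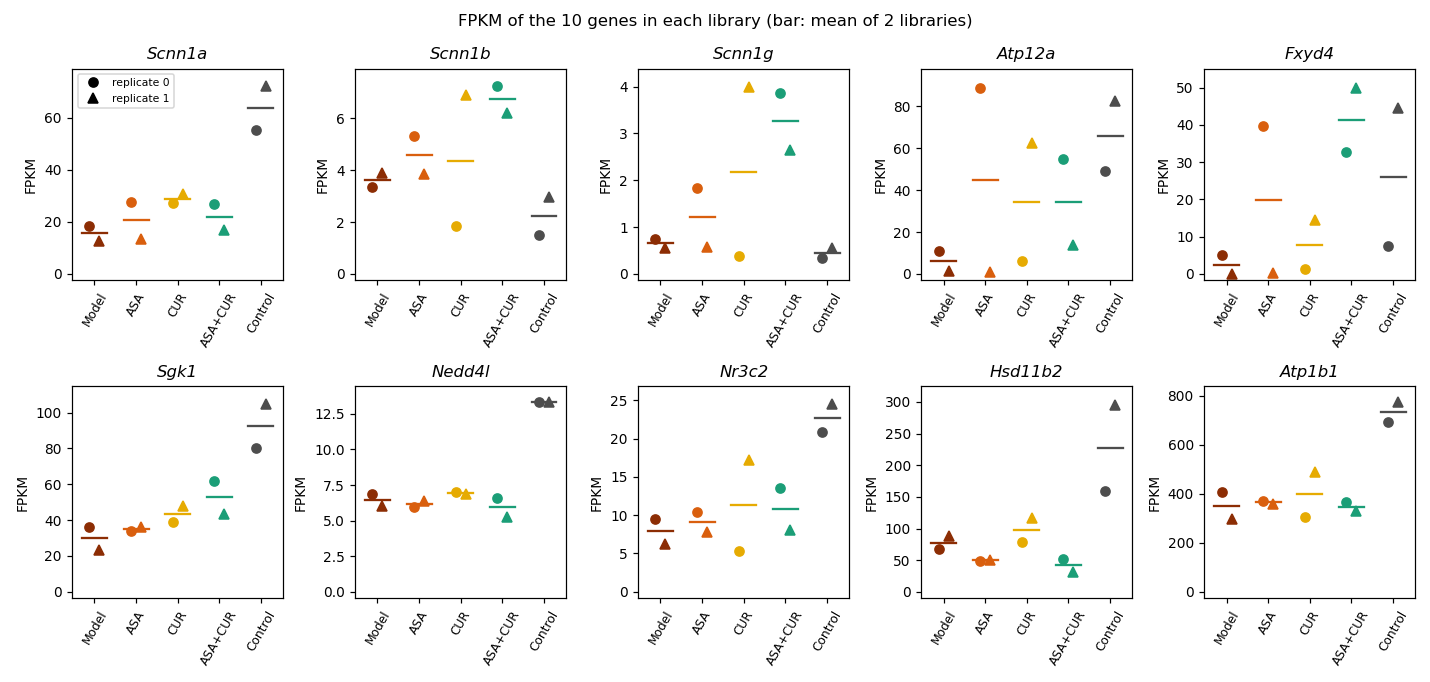
FPKM of the 10 genes (vertical axes, linear) in each of the 10 libraries, with the groups Model, ASA, CUR, ASA+CUR and Control from left to right; each point is 1 library and each bar the mean of the 2. In 6 panels every AOM/DSS point lies under both Control points, whereas Atp12a and Fxyd4 spread widely within the Model, ASA and CUR groups.

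Nr3c2, the mineralocorticoid receptor (GRCm38 chromosome 8, 76898083 to 77245012), had 9.49 and 6.26 FPKM in Model, 10.5 and 7.81 in ASA, 5.34 and 17.2 in CUR, 13.6 and 8.002 in ASA+CUR, and 20.8 and 24.6 in Control. No AOM/DSS library reached the Control range, and the CUR libraries lay furthest apart, with the distal position marker Hoxd13 at 0.0323 and 71.6 FPKM in them. On the log2(FPKM + 1) scale, Model differed from Control by -1.44 ± 0.47 (limma's standard error), and the mean of the 4 AOM/DSS groups by -1.21 ± 0.37. The glucocorticoid receptor gene Nr3c1, which binds many of the same DNA elements, had 12.5 and 16.4 FPKM in Model and did not pass the test against Control (-0.54 ± 0.21, adjusted p = 0.120, limma). It fell in the mean of the 4 AOM/DSS groups (-0.69 ± 0.17, adjusted p = 0.0168, limma). The ratio of Nr3c2 to Nr3c1 FPKM was 0.761 and 0.381 in Model, 0.800 and 0.611 in ASA, 0.528 and 1.21 in CUR, 0.996 and 0.723 in ASA+CUR, and 1.06 and 1.07 in Control. CUR replicate 1 was the AOM/DSS library whose ratio exceeded those of Control.

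Hsd11b2, which inactivates glucocorticoids in aldosterone target cells (chromosome 8, 105518746 to 105523988), had 68.0 and 87.8 FPKM in Model, 48.9 and 50.9 in ASA, 78.3 and 116 in CUR, 52.1 and 31.6 in ASA+CUR, and 160 and 296 in Control. The ASA and ASA+CUR libraries lay under both Model libraries, and the CUR libraries overlapped with Model. The difference was -1.48 ± 0.35 for Model against Control and -1.79 ± 0.28 for the mean of the 4 AOM/DSS groups against Control. Hsd11b1, the enzyme that regenerates active glucocorticoid, rose in Model against Control (0.84 ± 0.22, adjusted p = 0.0367, limma), with 8.54 and 8.65 FPKM in Model, against 5.74 and 3.27 in Control. The ratio of Hsd11b2 to Hsd11b1 FPKM was 7.97 and 10.1 in Model, 3.86 and 4.26 in ASA, 13.7 and 20.5 in CUR, 6.11 and 3.96 in ASA+CUR, and 27.9 and 90.4 in Control. Every AOM/DSS library had a lower ratio than either Control library, with the CUR libraries nearest to Control.

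Sgk1, the serum and glucocorticoid regulated kinase that the mineralocorticoid receptor induces (chromosome 10, 21882184 to 21999903), had 36.2 and 23.3 FPKM in Model, 34.0 and 36.0 in ASA, 38.9 and 47.8 in CUR, 61.8 and 43.5 in ASA+CUR, and 80.4 and 105.04 in Control. The groups stood in the order Model, ASA, CUR, ASA+CUR and Control by their means, but libraries of neighbouring AOM/DSS groups overlapped for Model with ASA and for CUR with ASA+CUR. The difference from Control was -1.63 ± 0.26 in Model and -1.22 ± 0.20 in the mean of the 4 AOM/DSS groups.

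The table held 6 transcripts of Sgk1, which start at several promoters, with NM_001161847 and NM_001161848 sharing a start. Their split could be read apart from the sum. Promoter windows are shown for the 3 transcripts that carried nearly all of the FPKM, from 250 bases before to 50 bases after the start (RefSeq, GRCm38.p6, plus strand, 5′ to 3′). They lie at chr10:21994416-21994715 for NM_011361, chr10:21993640-21993939 for NM_001161850 and chr10:21991973-21992272 for NM_001161849. Capitals mark matches to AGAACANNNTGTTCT (the palindrome that glucocorticoid and mineralocorticoid receptors bind), to its arm AGAACA and to TATAAA, searched on both strands.
Sgk1 NM_011361: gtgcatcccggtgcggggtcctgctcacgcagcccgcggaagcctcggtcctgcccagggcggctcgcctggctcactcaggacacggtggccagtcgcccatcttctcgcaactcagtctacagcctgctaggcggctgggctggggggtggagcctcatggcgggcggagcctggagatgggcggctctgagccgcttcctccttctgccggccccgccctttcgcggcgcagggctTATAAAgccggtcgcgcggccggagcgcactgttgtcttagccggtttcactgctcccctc
Sgk1 NM_001161850: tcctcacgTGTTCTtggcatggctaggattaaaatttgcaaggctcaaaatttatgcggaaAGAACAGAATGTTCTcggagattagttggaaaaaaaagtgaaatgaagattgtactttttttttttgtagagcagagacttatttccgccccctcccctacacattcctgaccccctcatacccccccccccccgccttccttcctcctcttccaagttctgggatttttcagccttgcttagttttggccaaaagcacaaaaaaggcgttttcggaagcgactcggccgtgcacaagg
Sgk1 NM_001161849: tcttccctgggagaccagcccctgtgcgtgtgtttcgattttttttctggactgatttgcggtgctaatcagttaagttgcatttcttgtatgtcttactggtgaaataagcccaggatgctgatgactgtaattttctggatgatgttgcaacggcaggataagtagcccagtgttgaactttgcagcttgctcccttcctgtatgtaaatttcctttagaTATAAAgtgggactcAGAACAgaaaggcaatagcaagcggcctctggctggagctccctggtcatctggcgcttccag
The full palindrome was found in the window of NM_001161850, as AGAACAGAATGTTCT, with its first base 189 bases before that start and 965 bases before the start of NM_011361. Among 32851 mouse promoter windows of the same length, 3 held the full palindrome, which is 0.00913%. The arm AGAACA, whose matches include those within the palindrome, was in 19.0% of the windows and TATAAA in 13.6%. A match describes letters in a window and not binding.

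NM_011361 gave 90.9% and 88.9% of summed Sgk1 FPKM in Model, 87.8% and 84.0% in ASA, 95.9% and 95.8% in CUR, 92.5% and 83.8% in ASA+CUR, and 96.3% and 97.9% in Control. Each AOM/DSS library had a smaller share than either Control library. NM_001161850, whose window holds the palindrome, gave 5.86% and 6.26% in Model, 3.91% and 7.46% in ASA, 0.853% and 1.73% in CUR, 2.31% and 3.23% in ASA+CUR, and 1.41% and 0.200% in Control. Model, ASA and ASA+CUR libraries were above all Control and CUR libraries for this transcript. NM_001161849 gave 3.22% and 4.81% in Model, 8.30% and 8.58% in ASA, 3.27% and 2.03% in CUR, 5.17% and 12.97% in ASA+CUR, and 2.26% and 1.81% in Control, so its share was highest in the diets with ASA. These shares were estimated by the authors' software from reads that the transcripts mostly have in common, and no test was run on them.

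**Figure D2:**
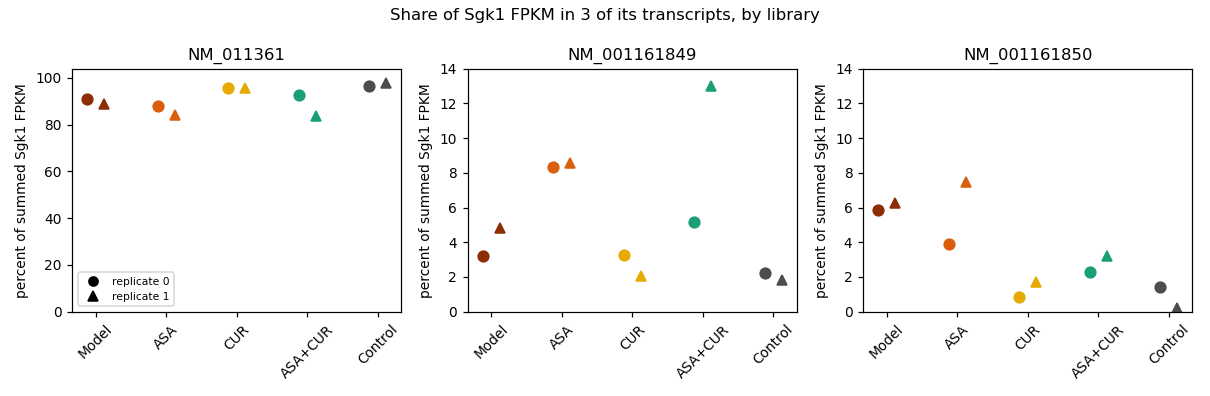
Share of summed Sgk1 FPKM (percent, linear axes that differ between panels) in 3 transcripts, by library, with the groups Model, ASA, CUR, ASA+CUR and Control from left to right; each point is 1 library, with a circle for replicate 0 and a triangle for replicate 1. NM_011361 is highest in the Control libraries, at 96.3% and 97.9%, and the other transcripts make up most of the rest.

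Nedd4l, the ubiquitin ligase that removes ENaC from the membrane and is itself restrained by Sgk1 (chromosome 18, 64884480 to 65217826), had 6.88 and 6.05 FPKM in Model, 5.95 and 6.36 in ASA, 7.01 and 6.87 in CUR, 6.57 and 5.28 in ASA+CUR, and 13.3 and 13.3 in Control. It was the most even of the genes, with all 8 AOM/DSS libraries between 5.28 and 7.01 FPKM. The difference was -0.94 ± 0.16 for Model against Control. Its relative Nedd4 was more abundant by FPKM, which is per length, and did not pass the test in Model against Control (0.34 ± 0.26, adjusted p = 0.410, limma). The ratio of Nedd4 to Nedd4l FPKM was between 11.3 and 29.3 in the AOM/DSS libraries, against 8.42 and 9.33 in the Control libraries. Of the 2 Nedd4l transcripts, NM_031881 had 16.03% and 15.0% of the gene's FPKM in Model, 9.15% and 18.9% in ASA, 15.7% and 4.21% in CUR, 7.51% and 2.75% in ASA+CUR, and 17.6% and 30.0% in Control. The AOM/DSS libraries and Control overlapped for this share.

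ENaC is built of an alpha, a beta and a gamma subunit, and the genes of the 3 did not move together. Scnn1a, the alpha subunit (chromosome 6, 125314271 to 125344943), had 18.4 and 12.7 FPKM in Model, 27.6 and 13.5 in ASA, 27.2 and 30.6 in CUR, 26.9 and 16.9 in ASA+CUR, and 55.5 and 72.2 in Control. Both CUR libraries were above both Model libraries, and all stayed under Control. The difference was -1.98 ± 0.35 for Model against Control, and -1.57 ± 0.28 for the mean of the 4 AOM/DSS groups.

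Scnn1b, the beta subunit (chromosome 7, 121865038 to 121918728), had 3.36 and 3.89 FPKM in Model, 5.33 and 3.86 in ASA, 1.83 and 6.90 in CUR, 7.26 and 6.21 in ASA+CUR, and 1.49 and 2.98 in Control. Of the 8 AOM/DSS libraries, 7 were above both Control libraries, and CUR replicate 0 lay between them. Scnn1g, the gamma subunit (chromosome 7, 121734420 to 121768482), had 0.741 and 0.562 FPKM in Model, 1.84 and 0.584 in ASA, 0.373 and 3.99 in CUR, 3.87 and 2.65 in ASA+CUR, and 0.349 and 0.553 in Control. Again CUR replicate 0 lay within the Control range and the other 7 above it. Model differed from Control by 0.55 ± 0.45 for Scnn1b and by 0.19 ± 0.55 for Scnn1g, and the mean of the 4 AOM/DSS groups by 0.81 ± 0.36 for Scnn1b and 0.78 ± 0.44 for Scnn1g.

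Scnn1g and Scnn1b lie on the same strand of chromosome 7, with 96555 bases between them. Their promoter windows are shown because, unlike Scnn1a, neither gene was lower in Model than in Control (RefSeq, GRCm38.p6, plus strand, 5′ to 3′, chr7:121734229-121734528 for Scnn1g and chr7:121864788-121865087 for Scnn1b).
Scnn1g: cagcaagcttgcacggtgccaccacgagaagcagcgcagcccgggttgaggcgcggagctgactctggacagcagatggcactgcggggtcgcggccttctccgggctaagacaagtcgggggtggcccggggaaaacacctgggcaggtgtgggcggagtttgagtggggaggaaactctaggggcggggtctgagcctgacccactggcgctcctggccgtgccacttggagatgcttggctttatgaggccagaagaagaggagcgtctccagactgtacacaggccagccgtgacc
Scnn1b: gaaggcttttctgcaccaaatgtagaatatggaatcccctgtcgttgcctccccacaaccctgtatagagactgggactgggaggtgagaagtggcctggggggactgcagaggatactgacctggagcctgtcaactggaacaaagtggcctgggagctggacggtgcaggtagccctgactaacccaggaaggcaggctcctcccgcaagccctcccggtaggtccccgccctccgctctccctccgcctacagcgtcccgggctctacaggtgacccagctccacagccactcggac
The Scnn1b window is at the start of the GENCODE transcript to which NM_011325, the transcript measured, is assigned. Neither window held any of the motifs named above on either strand, which says only that these letters are not there. Of the 10 genes, 6 had their windows searched.

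Because FPKM is per length, the subunits can be set against each other. Scnn1a made up 81.8% and 74.0% of summed ENaC FPKM in Model, 79.4% and 75.3% in ASA, 92.5% and 73.8% in CUR, 70.8% and 65.6% in ASA+CUR, and 96.8% and 95.3% in Control. The share of Scnn1b was 14.9% and 22.8% in Model, 15.4% and 21.5% in ASA, 6.22% and 16.6% in CUR, 19.1% and 24.1% in ASA+CUR, and 2.60% and 3.93% in Control. The share of Scnn1g was 3.29% and 3.29% in Model, 5.29% and 3.25% in ASA, 1.27% and 9.61% in CUR, 10.2% and 10.3% in ASA+CUR, and 0.610% and 0.731% in Control. In all 8 AOM/DSS libraries the alpha share was lower, and the beta and gamma shares were higher, than in either Control library. Total ENaC FPKM was 22.5 and 17.1 in Model, 34.8 and 18.0 in ASA, 29.4 and 41.5 in CUR, 38.1 and 25.8 in ASA+CUR, and 57.3 and 75.7 in Control, so the alpha subunit set the total. A share is made of levels that were known when the genes were picked, and no test was run on it.

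**Figure D3:**
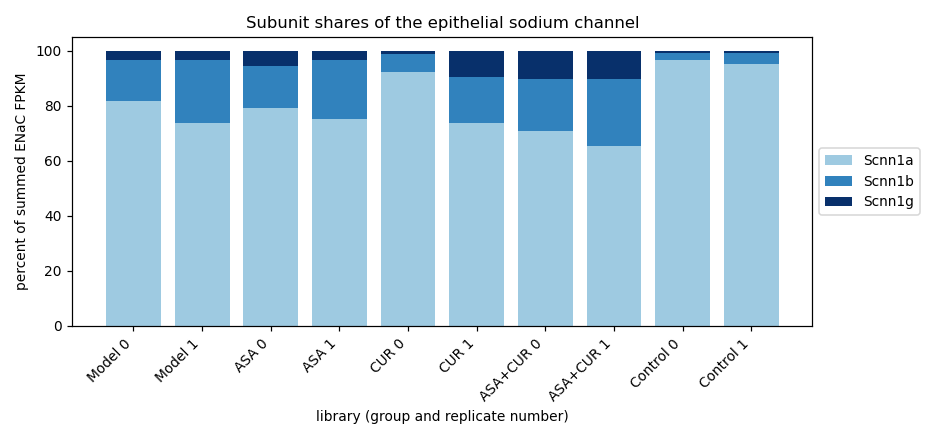
Share of summed ENaC FPKM (percent, axis from 0) held by Scnn1a, Scnn1b and Scnn1g in each library, stacked, with the groups Model, ASA, CUR, ASA+CUR and Control from left to right. Scnn1a takes 96.8% and 95.3% in the Control libraries and 65.6% to 92.5% in the AOM/DSS libraries.

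Atp1b1, the beta subunit of the sodium pump (chromosome 1, 164437099 to 164458355), was the most abundant of the 10 by FPKM, with 406 and 296 in Model, 372 and 357 in ASA, 307 and 487 in CUR, 365 and 329 in ASA+CUR, and 693 and 774 in Control. Every AOM/DSS library was under both Control libraries, and the AOM/DSS groups overlapped each other. The difference was -1.08 ± 0.25 for Model against Control.

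Atp12a and Fxyd4 behaved differently from the rest. Atp12a, the colonic H,K-ATPase that takes up potassium in exchange for protons (chromosome 14, 56364669 to 56388551), had 10.9 and 1.33 FPKM in Model, 89.0 and 0.897 in ASA, 6.12 and 62.6 in CUR, 55.0 and 13.6 in ASA+CUR, and 48.9 and 82.6 in Control. Fxyd4, a small regulator of the sodium pump also called CHIF (chromosome 6, 117933558 to 117937714), had 5.04 and 0 FPKM in Model, 39.7 and 0.177 in ASA, 1.19 and 14.4 in CUR, 32.6 and 50.02 in ASA+CUR, and 7.58 and 44.7 in Control. In ASA replicate 1, CUR replicate 0 and Model replicate 1 both genes were at their lowest, while their partner libraries were many times higher. The differences between Model and Control, -3.61 ± 1.79 for Atp12a and -3.01 ± 1.72 for Fxyd4, had standard errors far above those of the other genes. Of the 2 Fxyd4 transcripts, NM_033648 had between 19.0% and nearly all of the FPKM in the AOM/DSS libraries where the gene was above 0, against 49.0% and 77.6% in Control. The 2 transcripts correspond to 1 GENCODE transcript, so this split is uncertain.

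Among the AOM/DSS libraries, markers of distal position moved with these genes. Hoxd13, a transcription factor gene of the hindgut end, had 8.35 and 0.0850 FPKM in Model, 75.7 and 0.0566 in ASA, 0.0323 and 71.6 in CUR, 87.7 and 65.2 in ASA+CUR, and 3.52 and 1.86 in Control. Hoxb13, another, had 94.7 and 27.9 FPKM in Model, 197 and 15.0 in ASA, 19.5 and 296 in CUR, 180.3 and 183 in ASA+CUR, and 186 and 270 in Control. The 4 position markers in the table summed to between 28.6 and 391 FPKM in AOM/DSS libraries, against 209.8 and 292 in Control libraries, and Hoxd12 was at 0 in Model replicate 1, ASA replicate 1 and CUR replicate 0. The Control libraries did not follow this, with little Hoxd13 beside 48.9 and 82.6 FPKM of Atp12a. The 3 libraries under 1 FPKM of Hoxd13 were the same 3 in which Atp12a and Fxyd4 were lowest. Scnn1g was 0.373 to 0.584 FPKM in those 3 and 0.741 to 3.99 in the other 5 AOM/DSS libraries, and Nr3c2 was 5.34 to 7.81 FPKM in those 3 and 8.002 to 17.2 in the other 5. Scnn1b overlapped, at 1.83 to 3.89 FPKM in those 3 and 3.36 to 7.26 in the other 5. Nedd4l and Hsd11b2 did not divide along this line, with Nedd4l at 5.28 to 7.01 FPKM in all 8. Hoxa13 was between 10.9 and 19.2 FPKM in all 8, against 20.02 and 20.6 in Control. Squamous epithelium markers, which sit at the anal end, also varied, with the 12 summing to 27.8 to 898 FPKM in AOM/DSS libraries, against 8.26 and 8.44 in Control. Krt5 was at 94.5 FPKM in ASA replicate 0, 212 in ASA+CUR replicate 0 and 10.3 in Model replicate 0. The sum did not follow Hoxd13 throughout, at 205 FPKM in CUR replicate 0 and 90.7 in CUR replicate 1. In CUR replicate 0 its largest parts were Sprr1a (97.1 FPKM), Krt14 (59.3) and Krt6a (32.6), with Krt5 at 0.0739 and Trp63 at 0. Krt5 was 0.0308 FPKM in CUR replicate 1 and 0.0662 in ASA+CUR replicate 1, both with high Hoxd13. Scnn1a was higher in the library with more Hoxd13 in Model (18.4 and 12.7 FPKM), ASA (27.6 and 13.5) and CUR (30.6 and 27.2). So was Atp1b1, at 406 and 296 FPKM in Model, 372 and 357 in ASA, and 487 and 307 in CUR. For both genes the 3 libraries under 1 FPKM of Hoxd13 overlapped with the other 5. The part of position along the colon in the values of the 10 genes was not tested. With 1 library of each kind in Model, ASA and CUR, it cannot be told apart from the spread within a group.

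**Figure D4:**
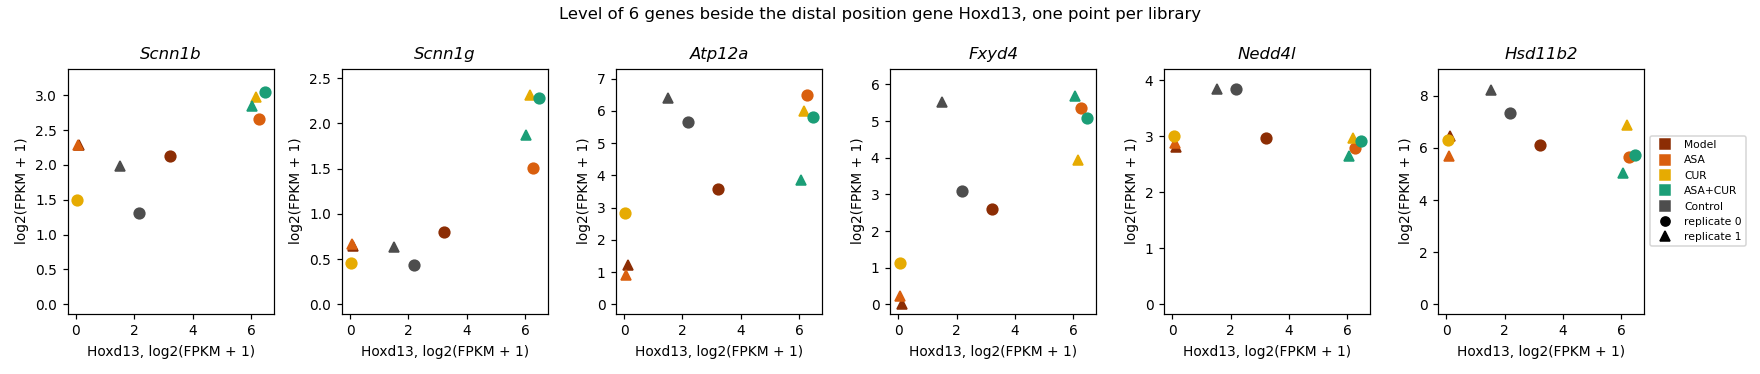
log2(FPKM + 1) of the genes named in the panel titles (vertical axes) against that of Hoxd13 (horizontal axis), with each point 1 library and colours for Model, ASA, CUR, ASA+CUR and Control. The 3 AOM/DSS libraries at the left edge, with 0.0323 to 0.0850 FPKM of Hoxd13, hold the lowest Atp12a and Fxyd4, while Nedd4l stays at 5.28 to 7.01 FPKM in all AOM/DSS libraries.

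Across the whole set, limma's test on 14061 genes put 16.2% of genes past an adjusted p of 0.05 in Model against Control, 6.84% higher and 9.34% lower. Of the 10 genes, 5 were past it, all lower: Scnn1a, Sgk1, Nedd4l, Hsd11b2 and Atp1b1. The libraries of Model and Control did not overlap for all 10, with 8 lower in Model and 2 higher (32.2% and 32.7% of all genes). Their median difference was -1.46, against 0.02 for all genes tested. In the mean of the 4 AOM/DSS groups against Control, Nr3c2 joined the 5, so that 6 were past the threshold and lower, where 31.5% of all genes were past it (14.6% higher, 16.9% lower); the median was -1.22, against 0.02 for all genes. Nr3c2 was not past it under TPM scaling, with no filter on low values, with the replicate block or on the epithelial scale below, nor without either Control library, Model replicate 1, either ASA library or ASA+CUR replicate 1. At an unadjusted p under 0.05 stood 6 of the 10 in each of these contrasts, where 31.7% of all genes did in Model against Control and 43.8% in the mean of the 4 groups. Since the genes were chosen with these contrasts known, nothing is read from the counts. They also lean on single libraries: without Control replicate 1, 0 of 10 were past the threshold in Model against Control and 2 in the mean of the 4 groups, and without Model replicate 1 only Sgk1 and Nedd4l were past it in Model against Control. Scaling to TPM moved the median of all genes by 0.24 in Model against Control, and relative to that median Scnn1a was at -2.01 and Nedd4l at -0.99; Scnn1a, Sgk1 and Nedd4l were then past the threshold. With the gut epithelium markers as the scale the median of all genes moved by 0.51. Cdx1, Cdx2 and Lgals4 are among these markers and were lower in Model than in Control, so the scale carries their differences. On that scale Scnn1a differed by -1.47 and Nedd4l by -0.43 in Model against Control. Scnn1a, Atp12a and Fxyd4 were then past the threshold, while Sgk1, Nedd4l, Hsd11b2 and Atp1b1 were not. In the mean of the 4 groups on that scale, Scnn1a, Atp12a and Hsd11b2 were past it and lower, and Scnn1b and Scnn1g past it and higher. Sgk1, Nedd4l and Atp1b1 were lost there along with Nr3c2.

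**Figure D5:**
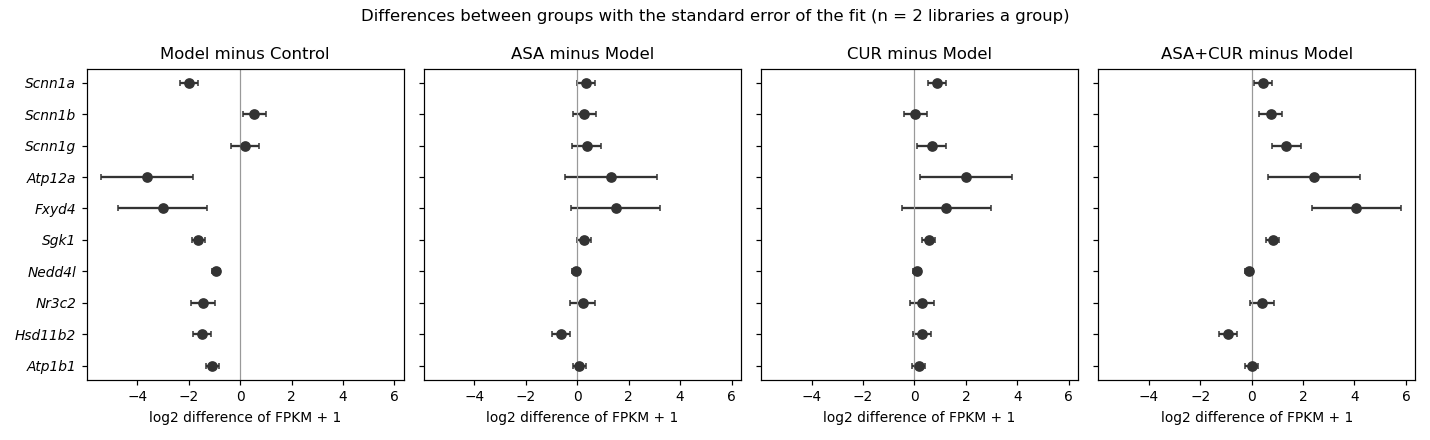
log2(FPKM + 1) difference of each of the 10 genes, with bars for limma's standard error, in Model minus Control and in ASA, CUR and ASA+CUR minus Model. Scnn1a, Sgk1, Nedd4l, Nr3c2, Hsd11b2 and Atp1b1 are below 0 in Model minus Control, from -0.94 to -1.98, and the wide bars of Atp12a and Fxyd4 reflect standard errors of 1.79 and 1.72.

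The rest of the pathway was read from 9 lists of 68 further genes, of which 62 passed the filter. Klhl3 is not analysed here. These lists too were chosen with earlier results of these data known, so their counts, medians and p-values are a description. In Model against Control 15 of the 62 passed the test, 4 rose and 11 fell, a share to be read against the 16.2% of all genes; their median difference was -0.25. Under TPM scaling 5 rose and 9 fell, and with the epithelial scale 3 rose and 4 fell. Without Control replicate 1 the count was 2, without Control replicate 0 it was 5 and without Model replicate 1 it was 7. In the mean of the 4 AOM/DSS groups against Control 24 passed, 6 rose and 18 fell, where 31.5% of all genes passed (14.6% higher, 16.9% lower). The split was 10 and 13 under TPM scaling and 10 and 7 with the epithelial scale; that count was 9 without Control replicate 1 and 13 without Control replicate 0.

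Among the 8 genes that cleave, inhibit or accompany ENaC, 2 rose and 2 fell in Model against Control, where 6.84% of all genes were higher and 9.34% lower. Prss8, the membrane protease prostasin that activates the channel, fell by 1.27 ± 0.14 (adjusted p = 0.00164, limma), with 19.3 and 16.9 FPKM in Model, against 41.5 and 48.7 in Control. Cftr, the apical chloride channel, fell by 1.37 ± 0.26 (adjusted p = 0.0130). Furin, a protease that cleaves the alpha and gamma subunits on their way to the surface, rose (0.69 ± 0.19, adjusted p = 0.0466), as did Serpine2, an inhibitor of serine proteases (1.31 ± 0.34, adjusted p = 0.0360). The membrane proteases Tmprss4 (-0.23 ± 0.21, adjusted p = 0.484) and St14 (0.03 ± 0.25, adjusted p = 0.955) did not pass.

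Among 13 tested kinases, ubiquitin ligases and their partners 1 fell in Model against Control, where 9.34% of all genes were lower: Usp2, a deubiquitinase induced by aldosterone that acts against Nedd4l on ENaC. It fell by 1.75 ± 0.37 (adjusted p = 0.0197, limma), with 1.51 and 1.36 FPKM in Model, against 7.27 and 7.12 in Control. In the mean of the 4 AOM/DSS groups 1 gene of this list rose and 3 fell, where 14.6% of all genes were higher and 16.9% lower. Usp10, also a deubiquitinase, rose (0.43 ± 0.13, adjusted p = 0.0364), and Stk39, the kinase SPAK (-0.97 ± 0.27, adjusted p = 0.0299), and Wnk4 (-0.76 ± 0.23, adjusted p = 0.0408) fell. The list of 9 genes that corticosteroids induce shares Usp2 with it. There Cnksr3, a scaffold that aldosterone induces, fell as well in Model against Control (-1.31 ± 0.27, adjusted p = 0.0181), and 5 of the 9 fell in the mean of the 4 groups, where 16.9% of all genes were lower, including Fkbp5 (-1.19 ± 0.27, adjusted p = 0.0122) and Tsc22d3 (-1.12 ± 0.32, adjusted p = 0.0328). In Model against Control alone Tsc22d3, known as GILZ, did not pass (-0.85 ± 0.41, adjusted p = 0.203). This list's median was -0.85 in Model against Control and -0.96 in the mean of the 4 groups.

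Among 10 tested sodium pump and FXYD genes 1 rose and 3 fell in Model against Control, where 6.84% of all genes were higher and 9.34% lower. Fxyd7 fell by 1.42 ± 0.19 (adjusted p = 0.00339, limma) and Fxyd1, phospholemman, by 2.11 ± 0.47 (adjusted p = 0.0224), while Fxyd5, dysadherin, rose (1.39 ± 0.33, adjusted p = 0.0262). Fxyd7 is known from neurons and Fxyd1 from muscle, and both moved with the neuron and smooth muscle markers given above, of which all 4 and all 6 fell in Model; their part was not tested. Of 9 tested potassium channels 3 fell and none rose, to be read against the same shares of all genes. They were Kcnk5, by 1.95 ± 0.35 (adjusted p = 0.0102), Kcnma1, the BK channel that secretes potassium in the colon, by 1.40 ± 0.26 (adjusted p = 0.0114), and its partner Kcnmb1, by 1.27 ± 0.27 (adjusted p = 0.0189). Smooth muscle also carries Kcnma1 and Kcnmb1, and its markers moved with them. Kcnn4, the intermediate conductance channel, did not pass (-0.25 ± 0.34, adjusted p = 0.656).

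The sodium-hydrogen exchanger gene Slc9a2 fell in Model against Control (-1.64 ± 0.39, adjusted p = 0.0289, limma), 1 of 7 in its list, where 9.34% of all genes were lower. Slc9a3, the main apical exchanger of the absorptive gut, did not pass (-0.50 ± 0.66, adjusted p = 0.654). In the mean of the 4 groups the scaffold gene Slc9a3r1 fell too (-0.87 ± 0.22, adjusted p = 0.0205). None of 4 cation-chloride cotransporters passed in Model against Control, where 1 had an unadjusted p under 0.05; Slc12a2, which loads the cell with chloride, was at -0.17 ± 0.27 (adjusted p = 0.715) and Slc12a7 at -0.39 ± 0.15 (adjusted p = 0.118). Slc12a4 rose in the mean of the 4 groups (0.75 ± 0.24, adjusted p = 0.0430). The gastric H,K-ATPase gene Atp4a, at 0.710 and 2.00 FPKM in Model, did not pass (1.07 ± 0.37, adjusted p = 0.0899).

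The diets were set against Model, and the combination also against each agent alone. All these comparisons share libraries, so the values stand side by side. None of the 10 genes was past limma's threshold in any of the 5 comparisons, and few genes of the whole table were: 0.0142% in ASA against Model, 0.00711% in CUR against Model, 0.0142% in ASA+CUR against Model, and 0.0% in ASA+CUR against ASA and against CUR. At an unadjusted p under 0.05 stood 0 of the 10 in ASA against Model, 1 in CUR against Model, 4 in ASA+CUR against Model, 0 in ASA+CUR against ASA and 1 in ASA+CUR against CUR. The share of all genes under that unadjusted level was 2.38% in ASA against Model, 4.86% in CUR against Model, 10.1% in ASA+CUR against Model, 2.84% in ASA+CUR against ASA and 13.8% in ASA+CUR against CUR. None of the 62 other pathway genes passed either, with 1, 7, 2, 2 and 9 at an unadjusted p under 0.05 in the same order. The smallest adjusted p among them was 0.28, for Prss8 in ASA+CUR against CUR, and the others were 0.486 for Prss8 in ASA+CUR against Model, 0.934 for Spint1 in CUR against Model, and 1.0 for Kcnma1 in ASA against Model and for Wnk2 in ASA+CUR against ASA.

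In ASA against Model, Hsd11b2 was lower in both libraries, by a difference of -0.62 ± 0.35, and the libraries of the other 9 genes overlapped; 14.2% of all genes were lower without overlap in this comparison. The differences of Sgk1 (0.26 ± 0.26), Scnn1a (0.32 ± 0.35), Nedd4l (-0.06 ± 0.16) and Atp1b1 (0.07 ± 0.25) were within about 1 standard error of 0. In CUR against Model, Scnn1a (0.88 ± 0.35) and Sgk1 (0.55 ± 0.26) were higher without overlap, where 12.0% of all genes were. Nr3c2 (0.30 ± 0.47), Hsd11b2 (0.30 ± 0.35) and Scnn1b (0.04 ± 0.45) overlapped.

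In ASA+CUR against Model, 5 genes were higher without overlap, where 24.8% of all genes were, and 1 was lower, where 25.4% were. The 5 were Fxyd4 (4.08 ± 1.72), Atp12a (2.44 ± 1.79), Scnn1g (1.35 ± 0.55), Sgk1 (0.82 ± 0.26) and Scnn1b (0.74 ± 0.45), and the lower gene was Hsd11b2 (-0.91 ± 0.35). Both ASA+CUR libraries had high Hoxd13, at 87.7 and 65.2 FPKM, where Model had 8.35 and 0.0850, so Hoxd13 moved with all 5 in this comparison. Hoxa13 overlapped, at 14.4 and 14.2 FPKM in ASA+CUR and 12.6 and 14.3 in Model. Sgk1 was higher in the library with more Hoxd13 in Model (36.2 and 23.3 FPKM), CUR (47.8 and 38.9) and ASA+CUR (61.8 and 43.5). It did not follow Hoxd13 in ASA, at 34.0 FPKM beside 75.7 of Hoxd13 in replicate 0 and 36.0 beside 0.0566 in replicate 1. Over the 8 AOM/DSS libraries the Pearson correlation of Sgk1 with Hoxd13 was 0.639. The part of position was not tested. Atp1b1 (0.00 ± 0.25) and Nedd4l (-0.11 ± 0.16) had the smallest differences of the 10.

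In ASA+CUR against ASA, Sgk1 (0.56 ± 0.26), Scnn1b (0.48 ± 0.45) and Scnn1g (0.99 ± 0.55) were higher without overlap, where 20.3% of all genes were. In ASA+CUR against CUR, Fxyd4 (2.83 ± 1.72) was higher without overlap, where 24.3% of all genes were, and Hsd11b2 (-1.21 ± 0.35), Scnn1a (-0.42 ± 0.35) and Nedd4l (-0.20 ± 0.16) were lower, where 24.2% were. In this last comparison Scnn1b and Scnn1g overlapped, with the CUR libraries at 1.83 and 6.90 FPKM for Scnn1b and 0.373 and 3.99 for Scnn1g. CUR replicate 1 had 71.6 FPKM of Hoxd13 and CUR replicate 0 had 0.0323, and the part of this was not tested.

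For 3 of the genes the patterns most like theirs over the 10 libraries were looked up among 9867 genes averaging at least 5 FPKM, by Pearson correlation of log2(FPKM + 1), as a description only. Scnn1b was matched most closely by Vps11 (r = 0.983), Arhgef3 (r = 0.976), Asxl2 (r = 0.969), Tut4 (r = 0.967) and Ubr1 (r = 0.966). For Atp12a the closest were Cdk8 (r = 0.958), Ddc (r = 0.954), Ppp1r1b (r = 0.952), Unc119 (r = 0.952) and B4galnt3 (r = 0.945). For Sgk1 they were Cdc14a (r = 0.98), Arhgap12 (r = 0.971), Cog1 (r = 0.945), Mcur1 (r = 0.943) and Slc20a1 (r = 0.937). The 10 libraries share groups and tissue makeup, which any such correlation carries.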

How the data were processed

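The authors deposited FPKM values per RefSeq transcript for 10 libraries, made with the TruSeq RNA kit (v2) and a NextSeq 500, per the labels' protocols. Tools listed in the submitters' processing notes are Cuffdiff, with no version, Bowtie2 2.1.0.0, TopHat2 2.0.9 and bcl2fastq 2.17.1.14, and the builds are GRCm38 and mm10. Cuffdiff divides fragments among transcripts by a model, so values are estimates, and a 0 can be a failed estimate. FPKM removes depth: library FPKM sums were 515959 to 720895 and 12781 to 13283 genes had at least 1 FPKM, and read numbers are unknown, so no counting interval was given. No strand handling is given in the sources used here.

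Of 30073 transcript rows, 29443 were named from a RefSeq table and 179 from GENCODE; 451 had no name. FPKM were summed per gene and tested as log2(FPKM + 1), which understates changes of low genes, with limma 3.58.1 in R 4.3.3 (all 10 libraries in 1 fit, variance trend, 5 residual and 2.96 prior degrees of freedom, two-sided, Benjamini-Hochberg within each of 7 comparisons, threshold 0.05); the procedure was checked on simulated data. Errors are limma's standard errors. The 2 libraries per group limit the precision. Groups were read from the sample titles. The 10 genes and the lists were chosen with earlier results of these data known. Named were the 10 genes, 14 pathway genes in any case (1 of them is not reported here), up to 4 genes past the threshold per list and comparison by smallest p (or the smallest p where none passed), and the 5 genes most correlated with each of Scnn1b, Atp12a and Sgk1. Alternatives were another pseudocount, no filter, TPM and quantile scaling, no variance trend, a replicate block, the libraries compared only, and each library left out; added after seeing the data were a gut epithelium scale and leaving out libraries under 1 FPKM of Hoxd13.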

Additional observations from a re-analysis of the deposited data

How the results depend on the processing

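No difference of the 10 genes that was past the threshold changed its direction under any alternative. Of the recomputed differences, 115 of 130 in Model against Control and 170 of 180 in the mean of the 4 AOM/DSS groups against Control moved by less than the spread between replicates, with 15 and 10 that moved further. Counts past the threshold were less steady. With only the Model and Control libraries in the fit, 7 of the 10 genes were past the threshold in Model against Control. Atp12a and Nr3c2 were the ones added to those of the main fit. In Model against Control the 10 genes gave 5, against 3 under TPM scaling, 3 under quantile normalization and 3 with the gut epithelium scale (Scnn1a, Atp12a and Fxyd4), and 0 to 4 with a library left out; the other pathway genes gave 15, against 7 with the epithelium scale and 2 to 10 with a library left out. In the mean of the 4 groups the 10 genes gave 6, against 2 to 8 with a library left out, and 8 without the 3 libraries under 1 FPKM of Hoxd13, where Scnn1b and Scnn1g were also past the threshold; the other pathway genes gave 24, against 9 to 28 with a library left out. In ASA+CUR against Model 0 of the 10 became 1 with the epithelium scale (Fxyd4), where 41 of all genes were higher and 44 lower. Cdx2, a marker in that scale, was 6.34 and 7.05 FPKM in ASA+CUR, 64.1 and 62.8 in Model, and 126 and 11.4 in CUR. In ASA+CUR against CUR 0 became 1 with the epithelium scale (Fxyd4), where 58 of all genes were higher and 39 lower. The counts in that comparison also changed with a library left out. The cause of these changes was not tested beyond their construction (fewer libraries, another scale). Without a library, the lone library of its group is assumed to vary like the others.

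With the replicate number as a block, 5 of the 10 genes were past the threshold in Model against Control and 5 in the mean of the 4 groups, where Nr3c2 was lost. The numbers do not pair the libraries: over 10 pairs of groups the correlation of deviations was -0.214 to 0.326, with 3 over 0.1. Depth is unknown from FPKM, so small differences of low genes such as Scnn1g were not judged against counting error.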
